A study of Mus musculus with 15 samples.

Results

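RNA of LTlate MLL-AF9 leukaemia cells was set against RNA of wtGMP cells, read here as wild-type granulocyte-macrophage progenitors, in 3 and 4 libraries, 7 of the 15 libraries of the series. The libraries were taken by their column names in the deposited count table (LTlate replicates 2, 3 and 4; wtGMP replicates 1 to 4), and all genes were analysed. Another library carries LTlate in its column name but LTearly in its sample title, and it entered no comparison. All libraries came from C57BL/6 bone marrow that was sorted by flow cytometry once beads had removed cells carrying Ter119, Gr-1, B220, Cd11b or Cd5. Per the labels, the mouse line carries a human MLL-AF9 cDNA placed by Cre recombination in targeting cells that were treated with doxycycline, chimeric mice were backcrossed to C57BL/6, and double heterozygous females were used. The labels give the GMP gate as IL-7Ra-, Sca-1-, c-Kit+, Cd34+ and high for Fc gamma receptors, and the gate of long-term stem cells as Sca-1+, c-Kit+, Cd34-, Cd48- and Cd150+. They do not spell out LTlate, LTearly or BMTGMP, nor say which gate, age or induction each library had, whether doxycycline was given to the wtGMP animals, or whether replicates are separate animals. P-values therefore measure the spread between samples, which may be technical. That spread was estimated over 14 libraries, so the LTearly and BMTGMP libraries add to the SE and p-values of LTlate against wtGMP.

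MLL-AF9 joins the DNA-binding part of MLL, a histone methyltransferase encoded in mice by Kmt2a, to the end of AF9 (mouse gene Mllt3), a subunit of a complex that promotes transcript elongation. Leukaemias with this fusion are known for high HOXA genes and their partners MEIS1 and PBX3. Granulocyte-macrophage progenitors are the cells that give rise to neutrophils and monocytes. They fill primary granules with myeloperoxidase and serine proteases first, and maturing neutrophils then make secondary and tertiary granule proteins, the phagocyte oxidase and the adhesion receptors with which they leave the marrow.

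Depth moved with the groups. Counts on named genes came to between 11569325 and 15092528 in LTlate and between 2469452 and 6978682 in wtGMP, and the 10 most abundant genes held 5.51% to 5.7% and 8.43% to 9.87% of them. With every library thinned to 2469452 counts, 1101 genes were higher and 542 lower, against 1112 and 437 at full depth. Rank correlations were 0.914 to 0.923 within LTlate, 0.889 to 0.916 within wtGMP and 0.859 to 0.904 across the groups. Levels are given as CPM, TMM-adjusted counts relative to library size, in the order of LTlate replicates 2, 3 and 4 and of wtGMP replicates 1 to 4. CPM are not divided by transcript length, so levels are compared within a gene only. Differences are log2 fold changes ± standard error (SE), and adjusted p is that of edgeR's quasi-likelihood test after Benjamini-Hochberg adjustment over 14542 genes, 2-sided, with 0.05 as the threshold. In these bulk samples, fewer cells of a type and less RNA per cell cannot be told apart.

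LTlate differed from wtGMP at 1549 of 14542 genes (10.7%). Of these, 1112 were higher in LTlate (7.65% of the genes tested) and 437 lower (3.01%), and these shares are the background for every list below. The 3 LTlate libraries lay above all 4 wtGMP libraries at 2230 genes (15.3%) and below them at 1538 (10.6%). The median log2 fold change of all genes was 0.01. Leaving out LTlate replicate 2 left 734 higher and 187 lower genes, and leaving out LTlate replicate 3 left 261 lower ones. Higher genes made up 71.8% of calls here, but 61.0% by DESeq2 and 60.5% with only these groups in the fit. That last fit called 1504 higher and 982 lower genes, so a missing call can rest on the spread of the other groups.

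**Figure D1:**
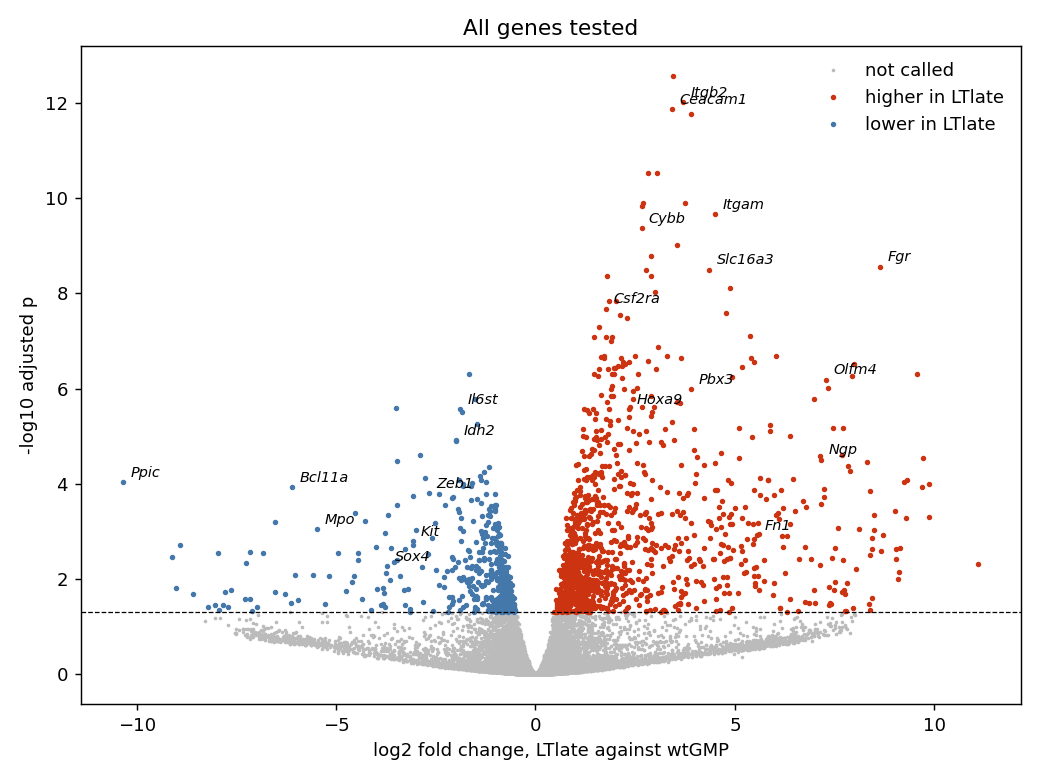
Each point is 1 of the 14542 genes tested, with the log2 fold change of LTlate against wtGMP on the horizontal axis and the negative log10 of the adjusted p on the vertical axis, where the dashed line marks 0.05. The 1112 red points are higher in LTlate, among them the adhesion genes Itgb2 and Ceacam1 near the top, and the 437 blue points are lower, among them Mpo and Bcl11a.

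Genes for the surface proteins of the sorting scheme came first. Relative to wtGMP, LTlate RNA was lower at Kit and higher at Itgam, opposite to c-Kit+ sorting and Cd11b depletion. The gate of each library is not given and RNA is not surface protein, so these levels do not settle how LTlate was sorted. Kit, the stem cell factor receptor that marks progenitors, fell from 238, 198, 184 and 157 CPM in wtGMP to 8.0, 33.5 and 27.9 CPM in LTlate (-3.07 ± 0.52, adjusted p = 0.00159). Every LTlate library lay below every wtGMP library, and replicate 2 was the lowest. Itgam (CD11b), the antigen of mature myeloid cells on which cells were depleted, rose to 1668, 1172 and 1091 CPM from 58.5, 31.5, 76.2 and 61.8 (4.51 ± 0.27, adjusted p = 2.18e-10). Fcgr3 (0.73 ± 0.21, adjusted p = 0.0228) and Fcgr2b (0.87 ± 0.25, adjusted p = 0.022), the Fc gamma receptors of the GMP gate, and Ptprc (CD45, 1.57 ± 0.18, adjusted p = 5.37e-07) rose as well. Cd34 stood at 94.9, 107 and 149 CPM in LTlate against 279.6, 258, 212 and 252 in wtGMP and was not called (adjusted p = 0.158), although its groups did not overlap. Ly6a (Sca-1) had at most 3 counts over either group, and Slamf1 (CD150) had 0 in both. Of 10 tested genes of the scheme (of 12), 4 rose (2 without wtGMP replicates 2 or 4 or LTlate replicates 2 or 3), 1 fell and 5 were not called. Not past the threshold in every alternative were Fcgr2b (without wtGMP replicates 2 or 4 or LTlate replicates 2, 3 or 4, highest adjusted p = 0.104; also with libraries thinned to equal depth) and Fcgr3 (without wtGMP replicates 2, 3 or 4 or LTlate replicates 2 or 3, highest adjusted p = 0.126; also with the left-out library counted as LTlate).

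Several of the HOXA genes that MLL fusions are known to maintain rose in LTlate, with 2 of their partners. Hoxa9 was at 63.9, 98.4 and 81.3 CPM in LTlate against 9.94, 19.9, 19.5 and 15.3 in wtGMP (2.34 ± 0.30, adjusted p = 2.74e-06), Hoxa7 at 132, 138 and 147 CPM in LTlate against 30.4, 27.9, 32.3 and 19.1 in wtGMP (2.33 ± 0.26, adjusted p = 2.82e-07), and Hoxa10 at 13.9, 14.1 and 16.4 CPM in LTlate against 0.144, 2.39, 0 and 0 in wtGMP (4.90 ± 0.80, adjusted p = 9.64e-05). At all of them the lowest LTlate library lay above the highest wtGMP library. Of 8 tested genes of the Hoxa cluster (of 11), 3 rose and 5 were not called (median log2 fold change 2.16, or 2.15 with genes at 0 in a group set to their bound). Neighbouring Hoxa transcripts overlap, so reads of Hoxa9 and Hoxa10 could be split between them by the counting. Pbx3, which binds DNA with HOX proteins, went from 3.17, 8.36, 7.39 and 1.91 to 98.3, 73.4 and 57.8 CPM (3.91 ± 0.43, adjusted p = 1.02e-06). Meis1, the other main partner, went from 24.2, 37.0, 21.5 and 13.4 to 88.7, 150.5 and 128 CPM (2.36 ± 0.43, adjusted p = 0.0021). These 2 were the called genes among 8 tested HOX cofactors (of 9).

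**Figure D2:**
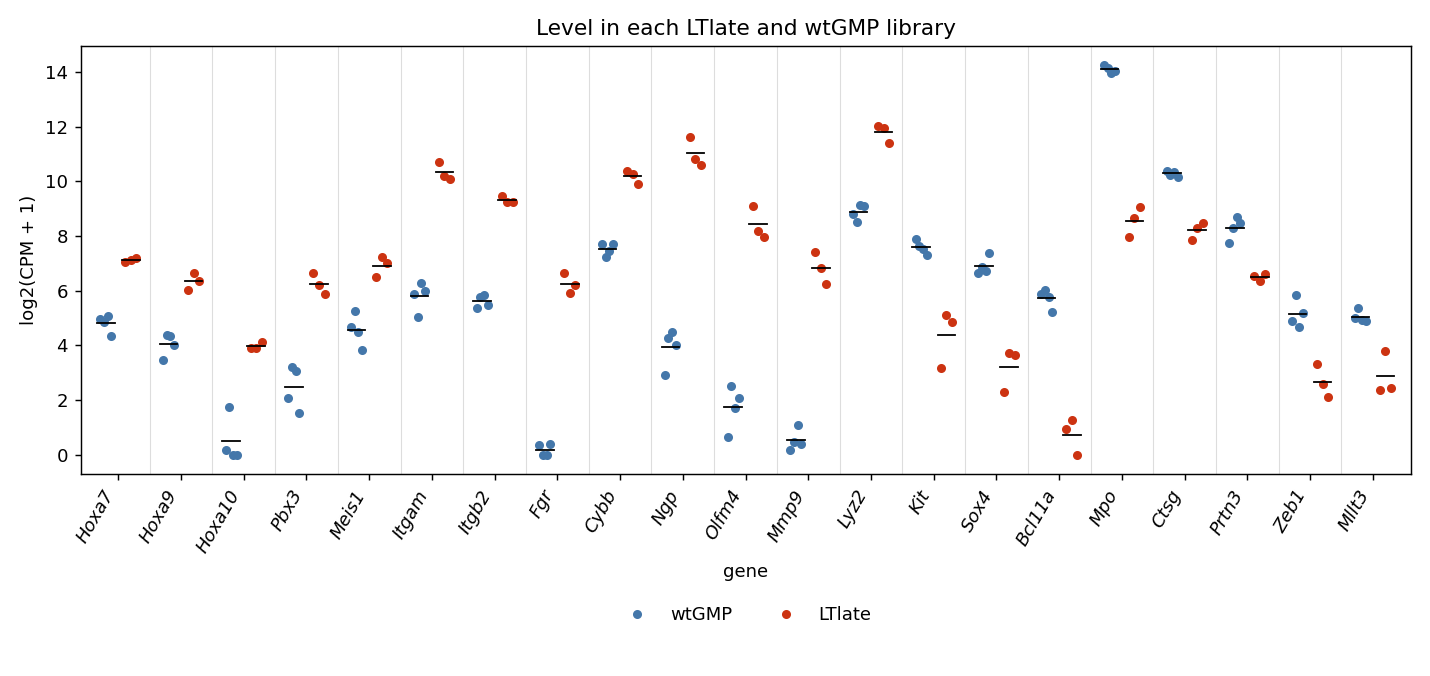
Level of 21 genes on a log2(CPM + 1) axis, 1 point per library (4 wtGMP in blue, 3 LTlate in red), with a black bar at the mean of each group. From left to right, HOXA genes and partners, adhesion and oxidase genes and granule genes lie higher in LTlate, and Kit, Sox4, Bcl11a, Mpo, Ctsg, Prtn3, Zeb1 and Mllt3 lie lower, with no overlap between the groups.

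Other genes known as targets of MLL fusions moved in both directions. Eya1, a transcriptional coactivator, rose to 73.3, 118 and 128 CPM from 4.32, 0.398, 6.95 and 10.8 (4.22 ± 0.56, adjusted p = 0.000202), while Six4, a homeobox factor that binds it, had 0 counts in LTlate against 2.74, 5.58, 0 and 2.87 CPM (at least 31.2-fold lower). At Six4 the groups overlapped, since wtGMP replicate 3 was at 0 too. Jmjd1c, which encodes a protein related to histone demethylases, rose by 0.94 ± 0.17, adjusted p = 0.000416, and Id2, an inhibitor of basic helix-loop-helix factors, rose by 4.66 ± 0.83, adjusted p = 0.00183. Sox4, a progenitor transcription factor, fell to 3.96, 12.2 and 11.5 CPM from 100.4, 116, 105 and 165 (-3.72 ± 0.74, adjusted p = 0.0053). Zfp521 was left with 1 count over LTlate, a pooled ratio of 381 (95% counting interval 67.5 to 15138) in favour of wtGMP. Of 18 genes in this list, 5 rose, 3 fell and 10 were not called (median 0.51). Under some alternatives there was no call at Six4 (with only these groups in the fit).

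Of the mouse genes of the fusion, Kmt2a was not called and Mllt3 fell. Kmt2a was at 318, 281 and 319.9 CPM in LTlate against 311, 347, 238 and 284 in wtGMP (0.06 ± 0.20, adjusted p = 0.931), so the groups overlapped. Mllt3, also known for maintaining stem cells, fell to 4.12, 13 and 4.39 CPM from 30.8, 40.2, 29.6 and 29.0 (-2.17 ± 0.63, adjusted p = 0.0233). The transgene is a human cDNA and reads were assigned to mouse transcripts, so these values are no check of it. Psip1, the chromatin tether of MLL, fell (-1.0 ± 0.24, adjusted p = 0.00763). Of 18 genes for MLL, AF9 and their complex partners, 3 fell (0 without LTlate replicate 2; 1 without wtGMP replicate 1) and 15 were not called, while a fit of only LTlate and wtGMP called 2 rises. Calls were lost under an alternative for Mllt3 (without wtGMP replicates 1 or 2 or LTlate replicates 2 or 4, highest adjusted p = 0.144) and Psip1 (without LTlate replicate 2, adjusted p = 0.0667).

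Stem cell genes showed no common direction. Erg, an ETS factor of stem cells, rose to 79.3, 91.3 and 94.0 CPM from 43.9, 37.8, 39.0 and 37.0 (1.16 ± 0.32, adjusted p = 0.0155), and Lmo2 rose by 1.05 ± 0.26, adjusted p = 0.00745 with overlapping groups. Msi2, an RNA-binding protein of stem cells and leukaemia, fell to 24.2, 18.9 and 27.9 CPM from 85.1, 63.7, 71.2 and 69.4 (-1.61 ± 0.39, adjusted p = 0.00591). Tal1 was at 1.15, 0 and 0 CPM in LTlate against 22.9, 35.1, 23.1 and 32.5 in wtGMP and missed the threshold (adjusted p = 0.0502). Mecom, which marks some MLL-rearranged leukaemias, was at 0, 0 and 5.82 CPM in LTlate against 0, 0, 0 and 3.82 in wtGMP and was not called (adjusted p = 0.79). Among 17 tested genes (of 20), 2 rose (0 without LTlate replicate 4; 1 without LTlate replicate 3), 2 fell (4 without LTlate replicate 2) and 13 were not called (median -0.12, or 0.10 with genes at 0 in a group set to their bound). Alternatives ended the calls at Erg (without LTlate replicates 3 or 4, highest adjusted p = 0.0551) and Lmo2 (without LTlate replicate 4, adjusted p = 0.0881).

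Late neutrophil genes were the list with the largest share of called members of the 48 lists. Ngp, a secondary granule protein, stood at 3127, 1819.5 and 1558 CPM in LTlate against 6.63, 18.3, 21.5 and 15.3 in wtGMP (7.16 ± 0.63, adjusted p = 3.13e-05). Olfm4, of a subset of neutrophil granules, stood at 549.6, 292 and 248 CPM in LTlate against 0.576, 4.78, 2.24 and 3.19 in wtGMP (7.28 ± 0.51, adjusted p = 6.52e-07), and Cd177, a neutrophil surface glycoprotein, at 327, 220.0 and 224 CPM in LTlate against 5.19, 2.39, 2.91 and 6.37 in wtGMP (5.89 ± 0.50, adjusted p = 5.84e-06). Replicate 2 was the highest LTlate library at all of them, and the groups were far apart. Mmp9, the gelatinase of tertiary granules (7.90 ± 0.84, adjusted p = 5.34e-05), Anxa1, a brake on neutrophil migration (1.79 ± 0.23, adjusted p = 1.32e-05), and Itgb2l, a beta integrin of neutrophils (8.31 ± 0.86, adjusted p = 3.54e-05), rose too. Of 23 tested genes (of 24), 21 rose and 2 were not called, with a median log2 fold change of 5.79 against 0.01 over all genes.

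Members of the primary granule list split by kind. Mpo, Ctsg and Prtn3 fell, while lysozyme genes, a scavenger and an inhibitor on the list rose. The tested members summed to 6075 to 7145 CPM in LTlate and 20400 to 23800 in wtGMP. Mpo, the myeloperoxidase that defines the progenitor stage, fell to 250.1, 401 and 537 CPM from 19269.7, 18148, 15998 and 16904 (-5.47 ± 0.77, adjusted p = 0.000894). Ctsg (cathepsin G) fell to 227, 311 and 357 CPM from 1343, 1206, 1303 and 1146 (-2.07 ± 0.39, adjusted p = 0.00378), and Prtn3 (proteinase 3) to 91.2, 79.8 and 96.5 CPM from 215, 313, 412 and 354 (-1.86 ± 0.42, adjusted p = 0.0106). LTlate replicate 2 was the lowest library at Mpo and Ctsg. Elane (neutrophil elastase) stood at 358, 284 and 359 CPM in LTlate against 1052, 866, 916 and 853 in wtGMP, without overlap, and missed the threshold (adjusted p = 0.0776). In the other direction, the lysozyme genes Lyz2 (2.91 ± 0.22, adjusted p = 4.31e-09) and Lyz1 (2.51 ± 0.34, adjusted p = 1.4e-05), the haemoglobin scavenger Hp (1.89 ± 0.19, adjusted p = 1.02e-07) and the protease inhibitor Serpinb1a (1.20 ± 0.36, adjusted p = 0.0471) rose. Lyz1 and Lyz2 are near-identical copies, so the division of reads between them is uncertain. Among 15 genes, 4 rose, 3 fell and 8 were not called (median -0.07). The threshold was missed under an alternative at Prtn3 (without LTlate replicates 2, 3 or 4, highest adjusted p = 0.0683) and Serpinb1a (without wtGMP replicates 1, 2, 3 or 4 or LTlate replicates 2, 3 or 4, highest adjusted p = 0.154; also with no low-count filter or with the 1 CPM filter or with the replicate block).

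Upstream sequences of 4 of these genes are shown, since Ngp and Cd177 rose and Mpo and Prtn3 fell. RefSeq promoters of GRCm38.p6 were matched by symbol, and the 250 bases before each start are printed 5′ to 3′ on the gene's strand. Ngp lies at chr9:110419558-110419807 (+ strand) and Cd177 at chr7:24760312-24760561 (- strand), with the C/EBP-type motif TTNNGNAAT in capitals, which in Ngp reads on the opposite strand. Mpo lies at chr11:87793534-87793783 (+ strand) and Prtn3 at chr10:79879417-79879666 (+ strand), with the PU.1-type motif GAGGAAGT in capitals.
Ngp: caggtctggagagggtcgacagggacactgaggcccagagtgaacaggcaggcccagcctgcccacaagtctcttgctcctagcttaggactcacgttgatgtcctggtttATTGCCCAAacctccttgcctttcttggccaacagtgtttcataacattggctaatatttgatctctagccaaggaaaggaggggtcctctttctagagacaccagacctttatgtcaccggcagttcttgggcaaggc
Cd177: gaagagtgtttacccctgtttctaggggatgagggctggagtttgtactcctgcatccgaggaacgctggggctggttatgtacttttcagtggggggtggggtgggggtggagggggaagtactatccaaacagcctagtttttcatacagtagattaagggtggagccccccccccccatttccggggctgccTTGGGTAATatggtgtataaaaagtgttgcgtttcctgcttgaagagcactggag
Mpo: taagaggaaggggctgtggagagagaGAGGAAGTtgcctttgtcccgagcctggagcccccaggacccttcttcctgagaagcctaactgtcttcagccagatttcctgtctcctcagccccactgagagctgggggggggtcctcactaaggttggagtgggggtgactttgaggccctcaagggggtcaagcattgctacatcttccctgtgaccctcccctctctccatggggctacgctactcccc
Prtn3: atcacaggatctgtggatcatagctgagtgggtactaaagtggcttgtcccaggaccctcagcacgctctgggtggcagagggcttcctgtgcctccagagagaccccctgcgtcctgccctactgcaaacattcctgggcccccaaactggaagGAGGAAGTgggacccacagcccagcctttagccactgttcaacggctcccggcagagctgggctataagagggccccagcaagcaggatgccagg
Both motifs and these promoters were chosen after the matches of 7 motifs had been seen, on either strand and with overlaps counted. The C/EBP-type motif was found at 6 of 22 late neutrophil genes, 1 of 12 primary granule genes and 10.16% of all 32851 promoters. A list gene counted if any of its promoters matched, so the list counts and the share of all promoters have unlike units. The PU.1-type motif was found in 4, 4 and 2.44%, and the shorter GAGGAA, which it contains, in 13, 6 and 23.25%. TTGCNNAA, another C/EBP-type form, was found in 8, 2 and 9.56%, and the E-box CACGTG in 0, 1 and 6.02%. The HOX-type motif TGATTTA was found in 1, 0 and 2.61%, and TGATTTAT, which contains it, in 0, 0 and 0.84%. A match describes letters in this window and is no evidence of binding.

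Some transcription factors of later myeloid stages rose. Cebpe, which drives secondary granule genes, stood at 78.1, 121 and 95.9 CPM in LTlate against 28.2, 38.6, 19.5 and 29.6 in wtGMP (1.77 ± 0.45, adjusted p = 0.0197). Cebpb (1.31 ± 0.31, adjusted p = 0.00562), the C/EBP factor of stress granulopoiesis, Irf5 (2.51 ± 0.41, adjusted p = 0.000325), a factor of macrophage activation, and Nfe2 (0.98 ± 0.20, adjusted p = 0.00122) rose with it. Irf4 had 0 counts in wtGMP and 1.40, 3.01 and 2.33 CPM in LTlate (at least 12.7-fold higher). Of 21 tested myeloid factors (of 22), 8 rose (5 without wtGMP replicate 3 or LTlate replicate 3) and 13 were not called (median 0.99), while a fit of only LTlate and wtGMP called 2 falls. Not past the threshold in every alternative were Cebpb (without LTlate replicate 2, adjusted p = 0.0518) and Cebpe (without wtGMP replicates 1, 3 or 4 or LTlate replicates 3 or 4, highest adjusted p = 0.0855; also with no low-count filter).

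Receptors for granulocyte-macrophage colony-stimulating factor rose, while 2 other cytokine receptor genes fell. Csf2ra, the alpha chain, stood at 485, 422 and 474 CPM in LTlate against 141, 150.2, 127 and 124 in wtGMP (1.76 ± 0.17, adjusted p = 2.1e-08). The beta chain genes Csf2rb2 (1.65 ± 0.35, adjusted p = 0.00228) and Csf2rb (1.26 ± 0.36, adjusted p = 0.0388) rose as well, and these copies may share reads. Il6st, the shared signalling chain of the IL-6 family, fell to 47.9, 42.3 and 40.8 CPM from 148, 140.2, 194 and 165 (-1.89 ± 0.24, adjusted p = 2.74e-06), and Kit fell as given above. Of 20 tested receptors (of 21), 4 rose (2 without wtGMP replicates 1 or 2 or 3 or 4 or LTlate replicates 2 or 3 or 4), 2 fell and 14 were not called (median 0.63). Under some alternatives there was no call at Csf2rb (without wtGMP replicates 1, 2, 3 or 4 or LTlate replicates 2, 3 or 4, highest adjusted p = 0.176; also with median-ratio size factors or with no low-count filter or with libraries thinned to equal depth).

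Part of the adhesion genes rose. Itgb2, the chain that pairs with Itgam to form the Mac-1 receptor, stood at 697, 605 and 597 CPM in LTlate against 40.3, 53.4, 56.7 and 43.6 in wtGMP (3.71 ± 0.21, adjusted p = 9.57e-13). Ceacam1, an adhesion molecule of granulocytes, stood at 622, 489 and 443 CPM in LTlate against 45.5, 41.0, 45.7 and 61.2 in wtGMP (3.42 ± 0.20, adjusted p = 1.34e-12). Every LTlate library lay several times above every wtGMP library at both. Ceacam2 (3.55 ± 0.28, adjusted p = 9.44e-10), a close copy of Ceacam1 with which reads may be shared, rose too, and Ceacam10 had 0 counts in wtGMP (at least 33.5-fold higher). The collagen receptor chain Itga1 (2.30 ± 0.36, adjusted p = 0.000372) and the vitronectin receptor chains Itgav (1.51 ± 0.26, adjusted p = 0.000193) and Itgb5 (2.62 ± 0.49, adjusted p = 0.000445) rose. Of 19 tested integrins (of 20), 7 rose and 12 were not called (median 1.32), and of 14 selectins, Ceacam and other receptors (of 15), 6 rose and 8 were not called (median 0.66).

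Chemotactic receptors and matrix proteases rose in part. Ccr1, a receptor for inflammatory chemokines, went from 1.87, 1.19, 1.34 and 5.10 to 93.6, 59.9 and 53.2 CPM (4.89 ± 0.74, adjusted p = 0.000693). Fpr2, which senses formylated bacterial peptides, rose from 3 counts over wtGMP, a pooled ratio of 34.6 (95% counting interval 11.7 to 169). Cxcr4, the receptor that retains cells in marrow, rose by 0.97 ± 0.27, adjusted p = 0.0192, and Cxcr2, which draws neutrophils out, stood at 47.7, 19.0 and 10.6 CPM in LTlate against 6.05, 0.398, 5.60 and 1.91 in wtGMP without a call (adjusted p = 0.139). Of 13 tested receptors (of 15), 7 rose (4 without LTlate replicate 2) and 6 were not called (median 1.80). Adam8, a membrane protease of leukocytes, stood at 168, 180.0 and 126 CPM in LTlate against 0.288, 1.19, 4.48 and 3.50 in wtGMP (6.11 ± 0.83, adjusted p = 0.000556), and Timp2, an inhibitor of metalloproteases, at 27.1, 19.0 and 16.9 CPM in LTlate against 0.288, 0.797, 0.896 and 0 in wtGMP (5.41 ± 0.58, adjusted p = 2.29e-07). Adam19 (5.19 ± 0.95, adjusted p = 0.00254) and the urokinase receptor Plaur (1.37 ± 0.33, adjusted p = 0.00651) rose as well. Of 15 tested genes of this list (of 16), 10 rose (5 without LTlate replicate 2) and 5 were not called (median 1.67). Calls were lost under an alternative for Cxcr4 (without wtGMP replicates 2 or 3 or LTlate replicates 2 or 3, highest adjusted p = 0.0818) and Plaur (without LTlate replicate 2, adjusted p = 0.0578).

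Genes of the epithelial-mesenchymal transition (EMT), which the study's title names, included both rises and a fall of a defining factor. Fn1 (fibronectin) differed between LTlate libraries, at 6949.6, 2606 and 951 CPM against 22.9, 53.4, 118 and 104 in wtGMP (5.56 ± 0.81, adjusted p = 0.00118). Even its lowest LTlate library, replicate 4, lay above the highest wtGMP library. Ncam1, a neural adhesion molecule also found on leukaemias, rose to 579.6, 537 and 729 CPM from 149, 112, 116 and 140.5 (2.25 ± 0.29, adjusted p = 6.62e-05). Col5a1, a collagen chain, rose from 3 counts over wtGMP to 51.6, 23.8 and 19.6 CPM, a pooled ratio of 177 (95% counting interval 60.3 to 857). Tgfbr2, a TGF-beta receptor, rose by 1.93 ± 0.47, adjusted p = 0.00612. Zeb1, a transcription factor that drives EMT, fell to 8.99, 4.96 and 3.29 CPM from 28.9, 57.0, 24.6 and 35.4 (-2.66 ± 0.45, adjusted p = 0.000155). Of 21 tested genes (of 27), 6 rose (3 without LTlate replicate 2), 1 fell and 14 were not called (median 0.81). The EMT factors Snai1, Snai2, Twist1, Twist2 and Foxc2 had too few counts to be tested, with 20, 5, 11, 0 and 3 over LTlate and 0, 18, 17, 0 and 12 over wtGMP. These raw counts are not adjusted for depth, which was greater in LTlate. Among 8 tested epithelial junction genes (of 12), the plakin Dsp (3.79 ± 0.78, adjusted p = 0.00999), the catenin-family gene Jup (2.64 ± 0.52, adjusted p = 0.000817) and Cldn1 (0 counts in wtGMP, at least 17.5-fold higher) rose and 5 were not called. Cdh1 (E-cadherin) stood at 2.72, 5.23 and 5.82 CPM in LTlate against 4.03, 3.19, 1.34 and 1.91 in wtGMP and was not called (adjusted p = 0.748). Alternatives ended the calls at Tgfbr2 (without LTlate replicate 2, adjusted p = 0.0631) and Zeb1 (with the left-out library counted as LTlate, -0.84, adjusted p = 0.561).

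**Figure D3:**
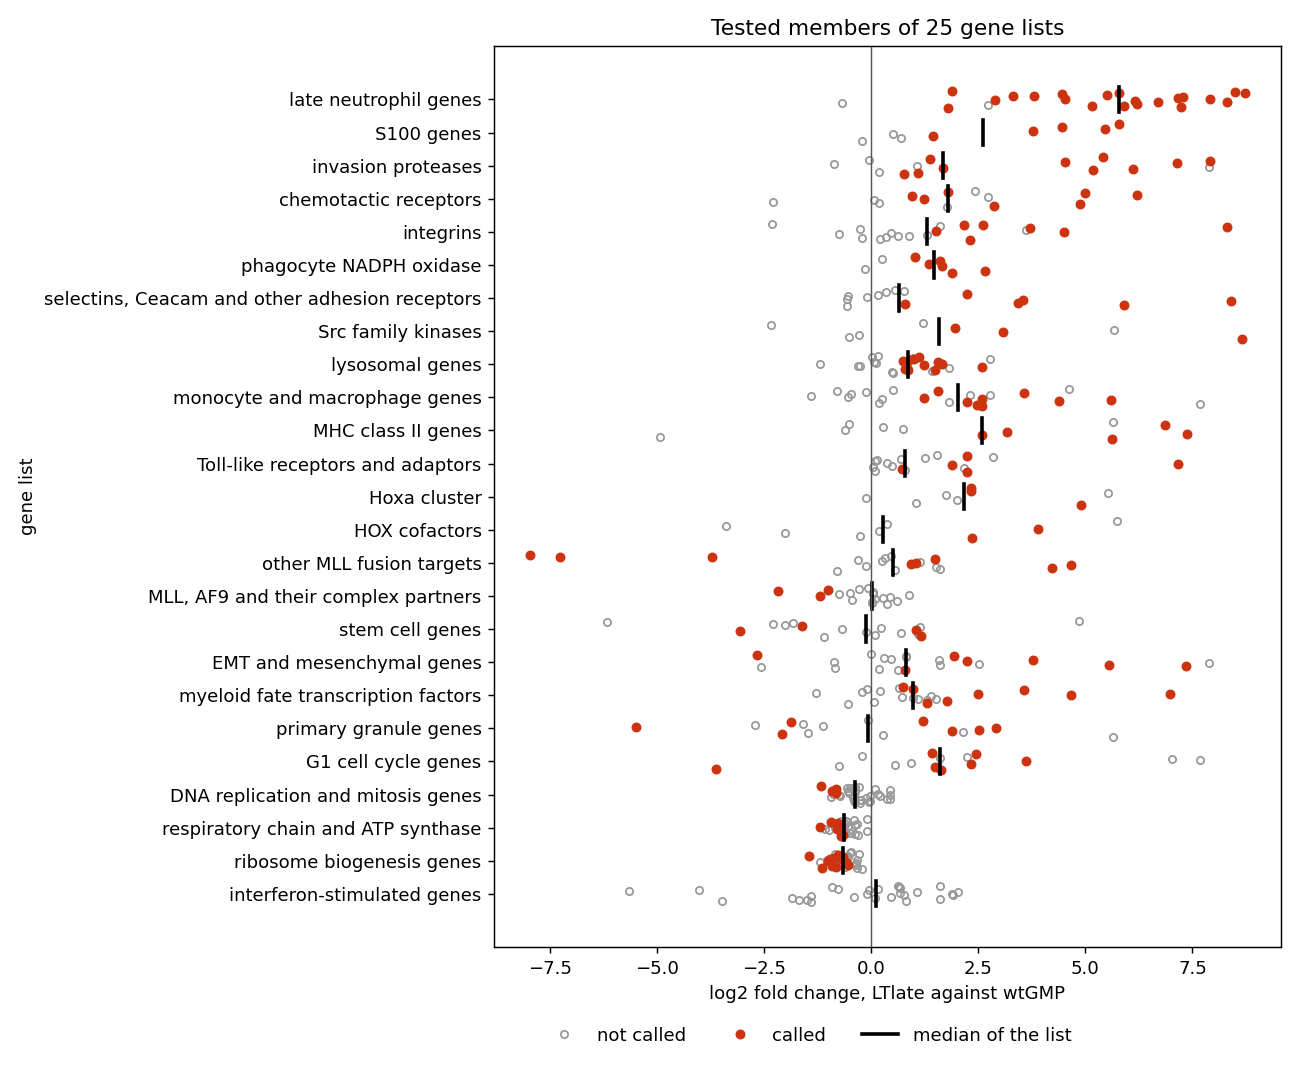
Log2 fold change of LTlate against wtGMP for the tested members of 25 gene lists, 1 point per gene (filled red where called, open grey where not), with a black bar at the list's median. Late neutrophil genes reach a median of 5.79, and all tested ribosome biogenesis and respiratory chain genes lie below 0.

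Most subunits of the phagocyte oxidase, which makes superoxide, rose. Cybb, its catalytic subunit, stood at 1312, 1242 and 957 CPM in LTlate against 210.0, 147, 173 and 209 in wtGMP (2.66 ± 0.20, adjusted p = 4.29e-10), and its membrane partner Cyba at 149.8, 129 and 135 CPM in LTlate against 35, 36.2, 41.7 and 36.6 in wtGMP (1.88 ± 0.23, adjusted p = 1.02e-06). The cytosolic subunits Ncf1 (1.65 ± 0.20, adjusted p = 1.35e-06) and Ncf4 (1.60 ± 0.23, adjusted p = 1.52e-05) and the GTPase Rac2 (1.03 ± 0.20, adjusted p = 0.000522) rose, each without overlap between groups. Of 8 genes, 6 rose and 2 were not called, Rac1 (0.25 ± 0.24, adjusted p = 0.592) and the proton channel Hvcn1 (-0.14 ± 0.29, adjusted p = 0.851). Myeloid Src kinases rose too. Lyn stood at 526, 434 and 352 CPM in LTlate against 122, 94.0, 117 and 114 in wtGMP (1.97 ± 0.22, adjusted p = 3.6e-07), and Fgr rose from 3 counts over wtGMP to 98.5, 59.0 and 73.6 CPM, a pooled ratio of 439 (95% counting interval 150.0 to 2129). Of 8 tested members (of 9), 3 rose and 5 were not called.

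The S100 alarmins S100a8 (4.45 ± 0.78, adjusted p = 0.00375) and S100a9 (5.79 ± 0.66, adjusted p = 0.000213), which form calprotectin, rose, as did S100a6 (5.46 ± 0.90, adjusted p = 0.00186), S100a11 (1.46 ± 0.23, adjusted p = 7.3e-05) and S100a4 (3.79 ± 0.83, adjusted p = 0.0125). S100a9 stood at 3125, 2225 and 1900.2 CPM in LTlate against 20.7, 32.3, 47.5 and 75.5 in wtGMP. Among 8 tested S100 genes (of 13), 5 rose and 3 were not called. Lysosomal genes rose in part. Grn (progranulin) stood at 242, 167 and 181 CPM in LTlate against 55.7, 62.1, 62.7 and 70.1 in wtGMP (1.65 ± 0.23, adjusted p = 1.14e-05), and the membrane proteins Lamp1 (0.76 ± 0.18, adjusted p = 0.00484) and Lamp2 (0.88 ± 0.21, adjusted p = 0.00542) and the protease Ctsb (0.87 ± 0.21, adjusted p = 0.00622) rose with it. Of 25 tested lysosomal genes (of 26), 12 rose and 13 were not called (median 0.87). The threshold was missed under an alternative at S100a4 (without LTlate replicate 2, adjusted p = 0.0507).

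Monocyte and macrophage genes rose in part. Adgre1 (F4/80) stood at 69.5, 89.1 and 80.1 CPM in LTlate against 11.5, 13.1, 21.7 and 6.37 in wtGMP (2.58 ± 0.29, adjusted p = 4.86e-07). Cd14 (2.24 ± 0.57, adjusted p = 0.013), the endotoxin co-receptor, and Apoe (2.48 ± 0.57, adjusted p = 0.0172) rose, and Cx3cr1, the fractalkine receptor, rose by 1.25 ± 0.32, adjusted p = 0.00889. Of 22 tested genes (of 25), 9 rose (4 without wtGMP replicate 3 or LTlate replicates 2 or 3; 5 without wtGMP replicate 4) and 13 were not called (median 2.03), and Ccr2, a marker of classical monocytes, stood at 237, 237 and 185 CPM in LTlate against 189, 184, 235 and 161 in wtGMP (adjusted p = 0.86). Toll-like receptor 13, Tlr13, rose from 0.576, 0, 1.57 and 0 to 132, 90.9 and 55.7 CPM (7.16 ± 0.91, adjusted p = 0.000262). Of 17 Toll-like receptor and adaptor genes, 5 rose (2 without wtGMP replicates 2 or 3 or LTlate replicate 2) and 12 were not called (median 0.79). Clec4a2, a lectin receptor with close copies, rose by 2.73 ± 0.41, adjusted p = 5.6e-05, and of 15 C-type lectin receptors 3 rose and 12 were not called (median 1.58). Cfp (properdin), made by neutrophils, rose by 2.11 ± 0.35, adjusted p = 0.00011, and of 13 tested complement genes (of 15) 4 rose (2 without wtGMP replicate 3 or LTlate replicate 2) and 9 were not called (median 2.11, or 1.96 with genes at 0 in a group set to their bound). Not past the threshold in every alternative were Apoe (without wtGMP replicates 3 or 4 or LTlate replicates 2 or 3, highest adjusted p = 0.0872), Cd14 (without wtGMP replicates 2 or 3 or LTlate replicate 2, highest adjusted p = 0.0873) and Cx3cr1 (without LTlate replicate 3, adjusted p = 0.165).

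Part of the genes of MHC class II presentation rose, some from a count of 0. Cd74, the invariant chain, was at 9.32, 5.4 and 5.21 CPM in LTlate and had 2 counts over wtGMP, a pooled ratio of 56.1 (95% counting interval 15.4 to 466). H2-Aa (at least 15.9-fold higher) and H2-Eb1 (at least 11.1-fold higher) had 0 counts in wtGMP and at most 4.62 CPM in LTlate. H2-Ab1 rose by 3.17 ± 0.84, adjusted p = 0.0145 and the protease Ctss by 2.59 ± 0.69, adjusted p = 0.0358. Of 11 genes, 5 rose (2 without wtGMP replicates 1 or 2 or 3 or LTlate replicate 2; 3 without wtGMP replicate 4 or LTlate replicates 3 or 4) and 6 were not called, the class II transactivator Ciita among them, with 1 count over LTlate (adjusted p = 0.264). Under some alternatives there was no call at Ctss (without wtGMP replicates 1, 2, 3 or 4 or LTlate replicates 2, 3 or 4, highest adjusted p = 0.131; also with the replicate block), H2-Ab1 (without wtGMP replicates 1, 2 or 3 or LTlate replicates 2 or 4, highest adjusted p = 0.0681; also with the replicate block) and H2-Eb1 (without wtGMP replicates 1, 2, 3 or 4 or LTlate replicates 2 or 3, highest adjusted p = 0.0814; also with the replicate block).

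Genes of ribosome biogenesis lay lower in LTlate. Nolc1, a nucleolar scaffold, stood at 382, 500.3 and 456 CPM in LTlate against 753, 867, 1144 and 791 in wtGMP (-0.99 ± 0.18, adjusted p = 0.000279), and Dkc1, which modifies ribosomal RNA, at 147, 209 and 217 CPM in LTlate against 441, 393, 497 and 359 in wtGMP (-1.14 ± 0.21, adjusted p = 0.000373). Npm1 (-0.87 ± 0.19, adjusted p = 0.00193) and Nop58 (-0.95 ± 0.18, adjusted p = 0.000662), nucleolar proteins of ribosome assembly, fell as well. At each of them every LTlate library lay below every wtGMP library. Of 28 genes, 12 fell (4 without LTlate replicates 2 or 3; 5 without wtGMP replicate 3) and 16 were not called, with a median of -0.66, and the 3 LTlate libraries lay below all wtGMP libraries at 20 of the 28 against 10.6% of all genes. Among 20 aminoacyl-tRNA synthetases, 1 fell (0 without wtGMP replicate 3 or LTlate replicates 2 or 3), Eprs (-0.63 ± 0.17, adjusted p = 0.0176), and 19 were not called (median -0.12). A call was lost under an alternative for Eprs (without wtGMP replicate 3 or LTlate replicates 2 or 3, highest adjusted p = 0.108).

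Some genes of the respiratory chain and of DNA replication fell. The ATP synthase gene Atp5a1 stood at 539, 584 and 569 CPM in LTlate against 940.2, 756, 1052 and 918 in wtGMP (-0.70 ± 0.17, adjusted p = 0.00549) and the succinate dehydrogenase gene Sdha at 244, 232 and 260.0 CPM in LTlate against 405, 355, 443 and 459 in wtGMP (-0.76 ± 0.19, adjusted p = 0.00701). Of 28 respiratory chain and ATP synthase genes, 6 fell (2 without LTlate replicate 3; 3 without LTlate replicate 2) and 22 were not called (median -0.62). Groups did not overlap at 16 of the 28, all lower in LTlate, against 10.6% of all genes. Mcm7 (-0.91 ± 0.20, adjusted p = 0.00228), a helicase subunit of replication, and Tyms (-1.17 ± 0.27, adjusted p = 0.00381), which makes thymidylate, fell, while the proliferation marker Mki67 stood at 7768, 8619 and 8834 CPM in LTlate against 6195, 6411, 5841 and 6357 in wtGMP, higher in every LTlate library but without a call (adjusted p = 0.0614). Of 35 replication and mitosis genes, 4 fell (2 without LTlate replicate 2) and 31 were not called (median -0.38). Alternatives ended the call at Sdha (without LTlate replicate 3, adjusted p = 0.0506).

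The G1 cyclin genes Ccnd3 and Ccnd2 moved in opposite directions. Ccnd3 rose to 162, 149 and 161 CPM from 48.1, 54.2, 76.4 and 45.2 (1.49 ± 0.23, adjusted p = 6.22e-05), and Ccnd2 fell to 3.88, 10.9 and 11.6 CPM from 119, 97.2, 111 and 104 (-3.62 ± 0.67, adjusted p = 0.0022). E2f2, an activator of S phase genes, rose to 123, 89.4 and 90.1 CPM from 19.3, 12.3, 13.7 and 28.7 (2.44 ± 0.29, adjusted p = 1.13e-06), as did Rb1, which restrains E2F factors (1.42 ± 0.31, adjusted p = 0.00204), and the inhibitor Cdkn1a (p21, 2.34 ± 0.64, adjusted p = 0.0168). Of 15 genes, 6 rose, 1 fell and 8 were not called (median 1.62). The threshold was missed under an alternative at Cdkn1a (without wtGMP replicates 2 or 3 or LTlate replicate 2, highest adjusted p = 0.0591).

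The lactate carriers moved in opposite directions. Slc16a3 (MCT4), the exporter, stood at 48.4, 70.9 and 53.9 CPM in LTlate against 3.89, 1.99, 2.02 and 2.87 in wtGMP (4.36 ± 0.37, adjusted p = 3.18e-09), and Slc16a1 (MCT1), which also takes lactate up, at 16.2, 13.5 and 30.4 CPM in LTlate against 71.0, 75.3, 105 and 90.8 in wtGMP (-2.09 ± 0.36, adjusted p = 0.0002). Eno1 (0.88 ± 0.21, adjusted p = 0.00552), Gpi1 (0.59 ± 0.17, adjusted p = 0.0197), the glucose carrier Slc2a3 (2.58 ± 0.59, adjusted p = 0.01) and Gapdh (0.68 ± 0.20, adjusted p = 0.0217) rose. Of 20 glycolysis genes, 5 rose (2 without LTlate replicate 2; 3 without wtGMP replicate 4), 1 fell and 14 were not called (median 0.32). The reference gene Actb rose as well (1.19 ± 0.16, adjusted p = 7.14e-06). Not past the threshold in every alternative were Gapdh (without wtGMP replicates 2 or 4 or LTlate replicates 2 or 3, highest adjusted p = 0.131; also with the left-out library counted as LTlate), Gpi1 (without wtGMP replicate 4 or LTlate replicates 2 or 4, highest adjusted p = 0.105) and Slc2a3 (without LTlate replicate 2, adjusted p = 0.0542).

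Enzymes of DNA methylation fell in part. Idh2, a mitochondrial enzyme mutated in human leukaemia, stood at 54.0, 63.8 and 71.6 CPM in LTlate against 251, 202, 299.6 and 247 in wtGMP (-1.98 ± 0.28, adjusted p = 1.25e-05). The methyltransferase Dnmt3b (-1.88 ± 0.37, adjusted p = 0.000852) and the dioxygenase Tet1 (-2.59 ± 0.54, adjusted p = 0.00138) fell, and its relative Tet2 rose (0.64 ± 0.16, adjusted p = 0.00868). Dnmt3a stood at 85.9, 106 and 68.2 CPM in LTlate against 120.3, 79.3, 58.7 and 73.9 in wtGMP and was not called (adjusted p = 0.948). Of 11 genes, 1 rose, 3 fell and 7 were not called (median -0.56). Among 26 histone methylation enzymes, the demethylase Kdm6b (1.5 ± 0.30, adjusted p = 0.00107) and the methyltransferase Kmt2c (0.75 ± 0.16, adjusted p = 0.00172) rose and 24 were not called, of which 4 were called lower with only LTlate and wtGMP in the fit. This share of rises lay near the 7.65% of all genes. Under some alternatives there was no call at Tet1 (with the left-out library counted as LTlate, -1.41, adjusted p = 0.126).

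Stress and survival genes rose in part. The p53 targets Trp53inp1 (2.54 ± 0.38, adjusted p = 3.66e-05) and Btg2 (1.34 ± 0.25, adjusted p = 0.000494) rose, and of 18 tested targets (of 19) 5 rose and 13 were not called (median 0.88). Klf2, a quiescence factor (2.38 ± 0.30, adjusted p = 2.47e-06), and the nuclear receptor Nr4a1 (2.26 ± 0.47, adjusted p = 0.00194) rose, and 4 of 23 genes of the immediate early and heat shock responses rose, with 19 not called (median 0.34). The survival gene Mcl1 (1.02 ± 0.28, adjusted p = 0.0198) and the BH3-only gene Pmaip1 (1.78 ± 0.45, adjusted p = 0.015) rose, and of 16 tested BCL2 family genes (of 17) 3 rose (0 without wtGMP replicate 4; 1 without wtGMP replicate 2 or LTlate replicates 2 or 4) and 13 were not called (median 0.81). Gsr (glutathione reductase) stood at 1229.7, 1045 and 1149 CPM in LTlate against 321, 319, 339.7 and 311 in wtGMP (1.82 ± 0.20, adjusted p = 3.84e-07), and with Prdx5 (1.26 ± 0.20, adjusted p = 8.11e-05), Gpx3 (3.33 ± 0.64, adjusted p = 0.00209) and Hmox1 (5.72 ± 1.07, adjusted p = 0.00399) it was 1 of 4 that rose among 23 tested antioxidant genes (of 24), with 19 not called (median -0.25). The cholesterol exporter Abcg1 (2.75 ± 0.59, adjusted p = 0.00238) rose, and of 23 sterol and lipoprotein genes 2 rose (1 without wtGMP replicates 3 or 4 or LTlate replicates 2 or 3), 1 fell (0 without wtGMP replicates 3 or 4 or LTlate replicates 2 or 3 or 4) and 20 were not called. Of 12 drug efflux transporters, 1 rose, 1 fell (0 without wtGMP replicates 1 or 2 or 3 or 4 or LTlate replicates 2 or 3 or 4), Abcg2 (-3.78 ± 1.14, adjusted p = 0.0377), and 10 were not called. Over all genes 7.65% were higher and 3.01% lower, so these sterol and transporter counts are not read as a trait of the lists. In 28 tested interferon-stimulated genes (of 30) edgeR called 0, DESeq2 called 1, and 3 had an unadjusted p below 0.05. In 15 genes of NF-kappaB subunits and feedback edgeR and DESeq2 each called 0, and 2 had an unadjusted p below 0.05. Calls were lost under an alternative for Abcg2 (without wtGMP replicates 1, 2, 3 or 4 or LTlate replicates 2, 3 or 4, highest adjusted p = 0.158; also with transcripts summed), Mcl1 (without wtGMP replicates 2, 3 or 4 or LTlate replicates 2 or 4, highest adjusted p = 0.0769) and Pmaip1 (without wtGMP replicate 4 or LTlate replicate 4, highest adjusted p = 0.08).

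Markers of other cell types are given by the sum of the tested members of each list, with LTlate first, and by the counts of markers too low to be tested. Those counts are raw, so the greater depth of LTlate raises them there. The 3 tested B cell markers (of 8) summed to 5.67 to 14.4 CPM in LTlate and 3.50 to 16.7 in wtGMP, and the untested Cd79a, Pax5, Igll1 and Vpreb1 had 14, 9, 24 and 0 counts over LTlate and 0, 0, 7 and 0 over wtGMP. The 3 tested T and NK cell markers (of 8) summed to 1.44 to 5.2 and 0 to 3.36 CPM (median log2 fold change 5.67, or 2.35 with genes at 0 in a group set to their bound). Of the untested ones, Cd3g, Cd3d, Cd4, Ncr1 and Cd3e had 50, 36, 33, 14 and 0 counts over LTlate and 0, 7, 8, 14 and 0 over wtGMP. The 3 tested megakaryocyte markers (of 6) summed to 10.6 to 18.2 and 2.69 to 13.1 CPM, and the untested Pf4, Gp9 and Ppbp had 26, 4 and 0 counts over LTlate and 0, 1 and 0 over wtGMP. In these lists edgeR called 0, 0 and 0 genes and DESeq2 called 0, 0 and 1, while an unadjusted p below 0.05 was found at 0, 2 and 1. Stromal and endothelial markers (11 tested of 12) summed to 120.0 to 237 and 106 to 148 CPM, with the untested Emcn at 0 and 8 counts, and there edgeR called 0 and DESeq2 1, and 1 had an unadjusted p below 0.05. Of 5 tested erythroid markers (of 9), 1 fell, the transferrin receptor gene Tfrc (-1.63 ± 0.28, adjusted p = 0.000214), and the sums were 42.2 to 55.9 and 101 to 175 CPM, while the untested Klf1 and Car1 had 31 and 25 counts over LTlate and 2 and 7 over wtGMP. Of 8 tested dendritic cell markers (of 9), 1 rose (0 without wtGMP replicates 3 or 4 or LTlate replicate 2), Clec9a, from 1 count over wtGMP (pooled ratio 105 (95% counting interval 18.7 to 4183)), and the sums were 44.4 to 80.4 and 20.6 to 30.3 CPM, while the untested Zbtb46 had 49 and 0 counts. Of 12 tested eosinophil, basophil and mast cell genes (of 16), 1 fell (0 without wtGMP replicate 3 or LTlate replicates 2 or 3 or 4), the basophil protease gene Prss34, which had 0 counts in LTlate against 3.89, 11.6, 12.5 and 9.24 CPM (at least 105-fold lower), and the sums were 141 to 412 and 193 to 296 CPM, while the untested Ear1, Fcer1a, Cma1 and Tpsb2 had 28, 0, 0 and 0 counts over LTlate and 1, 6, 2 and 0 over wtGMP. The monocyte and macrophage list summed to 2662 to 5022 CPM in LTlate and 2285 to 2647 in wtGMP, and the late neutrophil list to 8147 to 16360.0 and 564 to 662. The part of a change in cell makeup in the results above was not tested. Alternatives ended the calls at Clec9a (without wtGMP replicates 1, 3 or 4 or LTlate replicate 2, highest adjusted p = 0.383; also with the replicate block or with transcripts summed) and Prss34 (without wtGMP replicate 3 or LTlate replicates 2, 3 or 4, highest adjusted p = 0.0654; also with the left-out library counted as LTlate). That last alternative gave -2.78 at Prss34 (adjusted p = 0.342).

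The genes with the largest rises and falls were mostly outside these lists. Ecm1, an extracellular matrix protein, was at 65.8, 31.3 and 20.5 CPM in LTlate with 0 counts in wtGMP (at least 217-fold higher), and the aspartoacylase gene Aspa was at 16.9, 12.8 and 20.4 CPM (at least 96.9-fold higher). Adap2 (at least 84.2-fold higher), Treml4 (at least 62.8-fold higher), Fhad1 (at least 61.0-fold higher) and Tgm2, which encodes a transglutaminase (at least 54.4-fold higher), also had 0 counts in wtGMP. Each bound sets the wtGMP libraries together at 3 counts. The stefin-like genes Cstdc5 (9.29 ± 1.21, adjusted p = 0.000527), Cstdc6 (pooled ratio 1012 (95% counting interval 182 to 40005)) and Stfa2l1 (pooled ratio 1117 (95% counting interval 309 to 9226)) rose, and as near-identical copies they may share reads. Among the falls, Ppic (cyclophilin C) had 0 counts in LTlate against 27.5, 18.7, 41.5 and 4.78 CPM (at least 325-fold lower), and the adhesion receptor gene Adgra3 also had 0 (at least 134-fold lower). Bcl11a, a transcription factor of lymphoid and stem cells, fell to 0.907, 1.42 and 0 CPM from 57.5, 63.7, 53.8 and 36.3 (-6.10 ± 0.89, adjusted p = 0.000118). Smo, the signal transducer of Hedgehog ligands, fell to 0, 1.68 and 0 CPM from 55.6, 49.4, 51.3 and 50.3 (-6.54 ± 1.58, adjusted p = 0.0184), and the actin-binding calponin gene Cnn3 to 0, 0.797 and 0 from 18.0, 17.9, 36.7 and 27.4 (-6.52 ± 1.24, adjusted p = 0.000636). The threshold was missed under an alternative at Bcl11a (with the left-out library counted as LTlate, -1.85, adjusted p = 0.444) and Smo (without LTlate replicates 2 or 4, highest adjusted p = 0.0735).

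Where LTlate stood apart from the other MLL-AF9 groups was tested in the same fit, against LTearly (4 libraries) and BMTGMP (3 libraries), averaged on the log2 scale with equal weight. The LTlate libraries serve both comparisons, so their values are not independent. In all, 89 of 14542 genes were called (0.612%), 70 higher in LTlate (0.481%) and 19 lower (0.131%). LTearly replicate 4 stood apart from its group. On the first principal component of all 14 libraries (24.5% of the variance) it lay at 10.46, among the LTlate libraries (1.88 to 40.86), while the other LTearly libraries lay at 75.71 to 116.36. Without it 81 genes were higher and 21 lower. Counts ranged from 40 without LTlate replicate 2 and 41 without LTlate replicate 3 to 130 without BMTGMP replicate 1 for higher genes. For lower genes they were 8, 10 and 11 without LTlate replicates 3, 2 and 4, 30 and 29 without LTearly replicates 1 and 3, and 31 without BMTGMP replicate 1. DESeq2 called 112 higher and 147 lower genes.

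Abcb1b, a drug efflux pump that shares sequence with Abcb1a, had the smallest adjusted p in this comparison. It stood at 55.7, 42.8 and 57.6 CPM in LTlate, at 24.2, 24.0, 22.1 and 14.8 in LTearly and at 3.93, 3.77 and 3.74 in BMTGMP (log2 difference 2.53 ± 0.26, adjusted p = 3.86e-06). In wtGMP it stood at 63.9, 95.6, 54.4 and 62.1 CPM, and LTlate against wtGMP was not called (adjusted p = 0.446). Cd34, the progenitor marker, stood at 94.9, 107 and 149 CPM in LTlate, 13.5, 39.9, 12.7 and 63.1 in LTearly and 4.21, 3.38 and 6.65 in BMTGMP (3.24 ± 0.39, adjusted p = 0.00128). At both, every LTlate library lay above every library of BMTGMP and LTearly, and at Cd34 below every wtGMP library. Prg2, the eosinophil major basic protein, stood at 77.1, 274 and 238 CPM in LTlate, 1.90, 6.52, 10.5 and 19.8 in LTearly and 0.187, 1.17 and 1.04 in BMTGMP (6.17 ± 0.64, adjusted p = 0.00117), with 74.9, 81.7, 180.1 and 98.1 in wtGMP. Slpi, a secreted inhibitor of neutrophil elastase, stood at 185, 238 and 288 CPM, 116, 144, 134 and 90.6 and 10.0, 9.36 and 0.623 in the same order (3.03 ± 0.37, adjusted p = 0.00117). It also lay above its wtGMP level of 40.6, 35.1, 42.3 and 43.3 CPM. Not past the threshold in every alternative was Cd34 (with the left-out library counted as LTlate, 2.86, adjusted p = 0.113).

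Further genes were higher in LTlate than the mean of the other groups, and each group alone was not tested. Erg stood at 79.3, 91.3 and 94.0 CPM in LTlate, 54.1, 88.4, 48.1 and 89.4 in LTearly and 5.05, 16.6 and 6.65 in BMTGMP (1.77 ± 0.28, adjusted p = 0.00117). LTearly replicates 2 and 4 lay within the range of LTlate at Erg, and the BMTGMP libraries lay far lower. Itga1 (2.52 ± 0.31, adjusted p = 0.000712), the ephrin receptor gene Epha2 (3.81 ± 0.71, adjusted p = 0.0164), Plekhh2 (3.63 ± 0.60, adjusted p = 0.00308), the secreted angiopoietin-like gene Angptl2 (2.81 ± 0.55, adjusted p = 0.00922) and Armcx4 (2.80 ± 0.45, adjusted p = 0.00117) were called too. The survival gene Bcl2 (1.83 ± 0.30, adjusted p = 0.00287) was higher as well, and Ceacam1 (0.83 ± 0.16, adjusted p = 0.00947) and Gsr (0.79 ± 0.18, adjusted p = 0.0269) by less. Plekhh2 stood at 52.2, 53.2 and 63.6 CPM in LTlate, 7.83, 10.7, 1.81 and 7.89 in LTearly and 5.42, 0 and 3.12 in BMTGMP, and Itga1 at 219, 296 and 338, 131, 138, 53.9 and 215 and 14.1, 13 and 28.5 in the same order. At these 8 genes every LTlate library lay above every library of LTearly and BMTGMP, and the gap to the highest LTearly library was small at Itga1, Ceacam1 and Gsr. Of the genes lower in LTlate, Six4 had 0 counts in LTlate and stood at 6.88, 2.35, 6.15 and 0.118 CPM in LTearly and 35, 35.3 and 44.9 in BMTGMP (adjusted p = 0.00627). Bcl11a stood at 0.907, 1.42 and 0 CPM in LTlate, 19.0, 5.21, 8.33 and 14.3 in LTearly and 1.59, 7.67 and 10.4 in BMTGMP (-3.50 ± 0.78, adjusted p = 0.0449). The kinase gene Cdc42bpa (-3.68 ± 0.72, adjusted p = 0.0105), Ppp1r9a (-3.74 ± 0.65, adjusted p = 0.00287) and Ccdc149 (-4.75 ± 0.96, adjusted p = 0.0135) were lower too. Under some alternatives there was no call at Angptl2 (without LTlate replicates 3 or 4, highest adjusted p = 0.124), Armcx4 (with the left-out library counted as LTlate), Bcl11a (without LTearly replicates 1, 3 or 4 or LTlate replicates 2 or 3 or BMTGMP replicates 2 or 4, highest adjusted p = 0.269; also with median-ratio size factors or with no low-count filter or with the replicate block or with the left-out library counted as LTlate or with transcripts summed), Bcl2 (with the left-out library counted as LTlate), Ccdc149 (without LTlate replicate 3, adjusted p = 0.113; also with the replicate block or with transcripts summed), Cdc42bpa (without LTlate replicates 2 or 4, highest adjusted p = 0.0884), Ceacam1 (without LTlate replicate 2, adjusted p = 0.184), Epha2 (without LTlate replicate 2 or BMTGMP replicate 4, highest adjusted p = 0.091; also with the replicate block or with the left-out library counted as LTlate), Gsr (without LTearly replicate 2 or LTlate replicates 2, 3 or 4, highest adjusted p = 0.195; also with the replicate block or with transcripts summed), Itga1 (with the left-out library counted as LTlate), Plekhh2 (with the left-out library counted as LTlate) and Ppp1r9a (with the left-out library counted as LTlate).

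**Figure D4:**
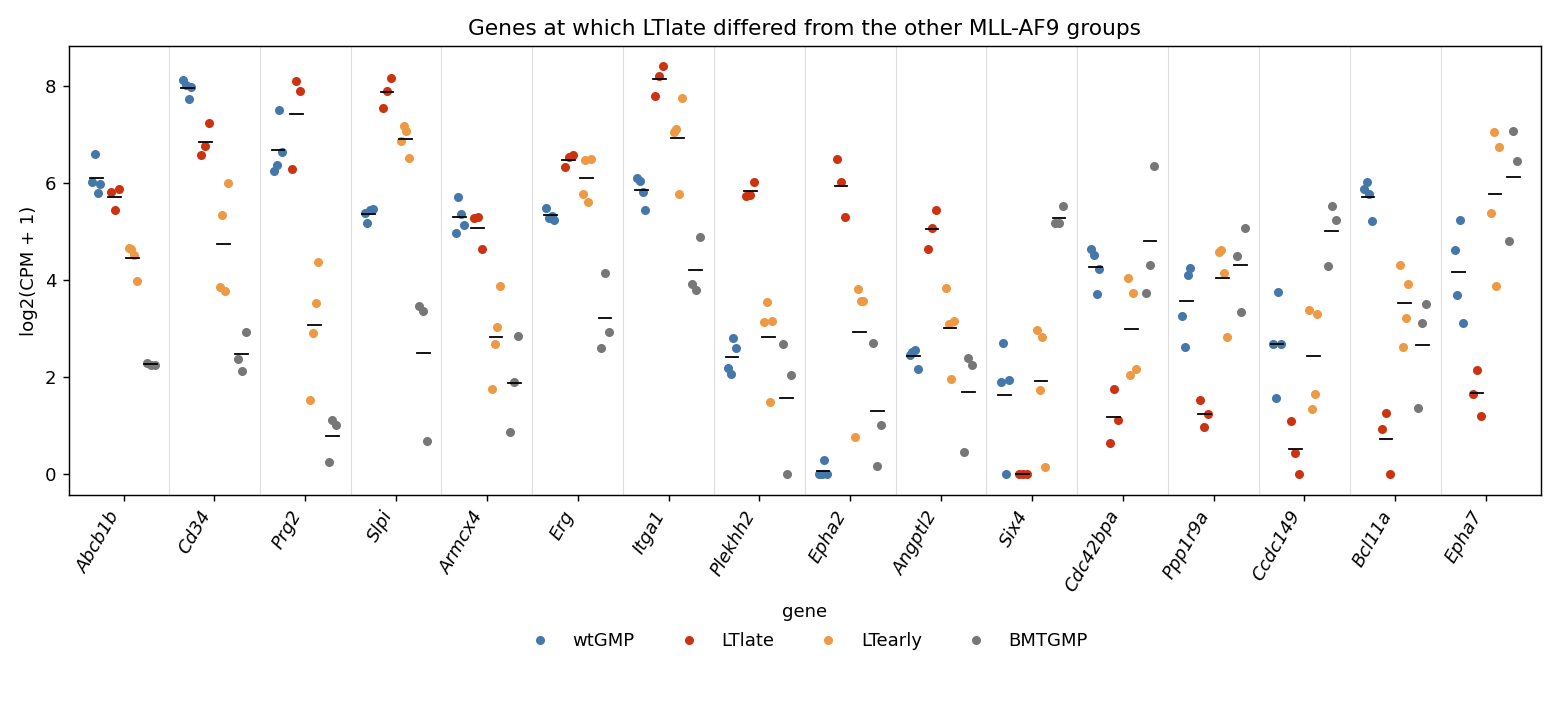
Level of 16 genes on a log2(CPM + 1) axis in the libraries of wtGMP (4, blue), LTlate (3, red), LTearly (4, orange) and BMTGMP (3, grey), with a black bar at each group's mean. The 10 genes on the left are higher in LTlate than the mean of the other MLL-AF9 groups and the 6 on the right are lower, and at Abcb1b the ranges of LTlate and wtGMP overlap.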

How the data were processed

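The authors deposited 1 table of expected counts of reads per RefSeq transcript; per the file headers the build is mm9 and the maximum number of hits was set to 100, and 13.747% of values were not whole (tolerance 1e-06). The submitters' processing notes name Bowtie 0.9.9.1, and whether counting used strand is not given in the sources used here. Per the labels, libraries were made with a ScriptSeq low-input kit from 150 ng of total RNA. Values were rounded to whole counts, 26092 of 28847 transcripts were matched to 20453 gene symbols (25977 by RefSeq and 115 by GENCODE), and 1 transcript was kept for each of the 3566 genes with several. Transcripts without a symbol held 3.51% to 4.16% of counts and were left out of totals and tests. Of 749 list genes 745 were found.

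All 14 libraries of 4 groups entered 1 fit in edgeR 4.0.16 (R 4.3.3, limma 3.58.1) with TMM scaling, the default low-count filter and a robust quasi-likelihood test. The common biological coefficient of variation was 0.748. An adjusted p below 0.05 was a call, and 1 further column of the table, which matches no sample described here, was not used. The script was tested on simulated data. For a gene at 0 in a group the fold is a bound against 3 counts over the group, and for 1 to 3 counts a pooled ratio with an exact 95% interval, which covers counting error only.

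Members and gene lists were chosen with earlier results of these data known. Genes were eligible to be named if they were among the 15 largest rises or falls with no overlap and at least 5 CPM in the higher group, the 6 members of each of 48 lists with the smallest p, any member of a list of at most 15 genes, 11 set genes with the sorting markers, or the 8 largest differences each way from the other MLL-AF9 groups. This made 390 genes, of which part is printed, and some items are not reported here. Alternatives were DESeq2 1.42.0, median-ratio size factors, other filters, a replicate block, a fit of only LTlate and wtGMP, the left-out library counted as LTlate, summed transcripts, unmatched transcripts kept, thinning to 2469452 counts and leaving out each library. Where a highest adjusted p is given for a lost call, it covers only the fits without 1 library.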

Additional observations from a re-analysis of the deposited data

Results flagged for a closer look

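In 13 of the 173 genes printed with values, 1 wtGMP library lay apart from the other 3 by a gap above Dixon's 95% critical value for its share of the group's range. Over all 390 genes eligible to be named this held for 43 in wtGMP, and for 55 in the 4 LTearly libraries. Chance gives about 1 in 20 groups for normally distributed values, a rate that need not hold for CPM of low-count genes. With the other 3 libraries at 0 the gap fills the range whatever the remaining value. The gap as a share of the range was 1.0 at Ciita, Mecom, Cstdc6 and Stfa2l1 (wtGMP replicate 4, with 5.10, 3.82, 0.319 and 0.637 CPM), at Clec9a (replicate 2, 0.398 CPM) and at Epha2 (replicate 3, 0.224 CPM), where the other wtGMP libraries were at 0. It was 0.94 at Hoxa10 (replicate 2 high, 2.39 CPM), 0.837 at Mllt3 (replicate 2 high, 40.2 CPM), 0.898 at Btg2 (replicate 1 high, 85.0 CPM), 0.832 at Lmo2 (replicate 1 high, 84.8 CPM) and 0.872 at Jup (replicate 3 high, 7.39 CPM). It was 0.891 at Lamp2 (replicate 2 low, 104 CPM) and 0.861 at Cdkn1a (replicate 2 low, 1.19 CPM).

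The library with conflicting names entered no comparison. Among the 390 eligible genes it lay above all wtGMP libraries at 134 of 146 rises and below all of them at 45 of 56 falls. These genes were called against the same wtGMP libraries, so part of this is built in. The count was not made over all genes or for the LTearly and BMTGMP libraries, so it does not place the library in a group.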

How the results depend on the processing

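The counts of genes higher and lower in LTlate than in wtGMP were 1112 and 437. By DESeq2 811 were lower, and with only these groups in the fit 982. Leaving out 1 library gave 734 to 947 higher and 187 to 387 lower genes. In every alternative run for this comparison, the genes that were also called in the reported fit kept their direction. Against the other MLL-AF9 groups (70 and 19), DESeq2 called 112 and 147, summed transcripts 35 and 7, and with the left-out library counted as LTlate 9 were lower. Leaving out 1 library gave 40 to 130 and 8 to 31.

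With the replicate block the counts were 1066 and 413 against wtGMP and 70 and 20 against the other groups. Deviations of same-numbered LTlate and wtGMP libraries correlated at 0.0563, 0.0119 and 0.0361, and those of differently numbered ones at -0.0555 to 0.0475. Whether same-numbered samples share more than a number was not tested. Of 202 calls against wtGMP among the 390 eligible genes, 139 held in every fit without 1 library and 165 in every other alternative, against 116 and 133 of the 149 calls printed. For the other MLL-AF9 groups these were 11 and 8 of 28, against 11 and 8 of 18 printed.

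Among the printed genes, values that changed sign belonged to genes without a call, except Bcl11a. With the left-out library counted as LTlate, Bcl11a against the other MLL-AF9 groups was 0.76, Dnmt3a -0.10 and Hvcn1 0.31, and thinning gave -0.057 at Dnmt3a. Leaving out 1 library gave -0.11 to 0.28 at Dnmt3a, -0.042 to 0.13 at Kmt2a and -5.53 to 6.83 at Mecom. List counts moved by over 1.5 times under other alternatives than single libraries as well. Ribosome biogenesis falls (12) ran from 11 to 19 and respiratory chain falls (6) from 5 to 13. Replication falls (4) ran from 4 to 9, primary granule falls (3) from 3 to 7 and DNA methylation falls (3) from 3 to 6. Cytokine receptor rises (4) ran from 2 to 9, MHC class II rises (5) from 2 to 6, C-type lectin rises (3) from 3 to 6 and MLL target rises (5) from 5 to 8. Histone methylation rises (2) ran from 2 to 5, stem cell falls (2) and sterol rises (2) from 2 to 4, and Toll-like receptor rises (5) from 3 to 6. Counts of 1 ran from 0 to 3. Lists without a call in a direction gained some as well, at most 4 (histone methylation falls). Rises of MLL complex genes and falls of myeloid factors, interferon-stimulated, immediate early and antioxidant genes reached 2, and the other lists at 0 reached at most 1. The cause was not tested. Over wtGMP, 3 counts or fewer limit what can be said of the genes given by a bound or a ratio.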

Other observations

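The library with conflicting names (LTlate in its column, LTearly in its title) is given as values only. It held 122 CPM of Hoxa9, 20.5 of Hoxa10, 414 of Meis1, 7.86 of Pbx3, 50.9 of Kit, 1528 of Itgam and 4735 of Ngp. Cd34 was at 6.79 CPM, Abcb1b at 14.4 and Bcl11a at 57.4.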
